A study of Homo sapiens with 6 samples.

Results

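The genes described here are 35 genes of protein folding and quality control in the endoplasmic reticulum (ER): chaperones, sensors of unfolded protein, and genes of ER-associated degradation (ERAD). They were taken by symbol from a fixed list, and all 35 were found by Ensembl identifier among the 25071 genes of the count table. By role they are 9 chaperones of the HSP70 and HSP90 systems with their partners, 3 lectin chaperones, 6 disulphide isomerases and oxidases, 5 sensors and transcription factors, 10 ERAD genes and 2 subunits of the translocon. RNA was sequenced from 6 libraries of PLC/PRF/5, an established human hepatoma cell line, and every library was made after transfection of a plasmid. In 3 libraries the plasmid was a control vector. In the other 3 it was one that overexpresses ARD1, the N-terminal acetyltransferase gene now called NAA10, and all cells were harvested 48 hours after transfection. The labels name neither the plasmid's promoter nor the number of cultures behind a group. The p-values therefore refer to the spread among these 6 libraries, which may be technical only.

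Proteins that enter the secretory pathway fold in the ER with the help of the chaperone BiP, lectins that read N-glycans, and enzymes that form disulphide bonds. Proteins that fail to fold are passed back through the membrane, ubiquitinated and degraded, which is ERAD. The membrane sensors IRE1, ATF6 and PERK register unfolded protein and raise transcription of chaperone and ERAD genes, a programme called the unfolded protein response. Hepatocytes secrete most plasma proteins and depend heavily on this machinery.

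Known promoter elements of this response are shown because the genes that carry them moved in different directions. ATF6 and the spliced form of XBP1 are known to act through the ER stress response element (ERSE), CCAAT followed by any 9 bases and CCACG, and the related ERSE-II, ATTGG followed by any base and CCACG. RefSeq promoter windows (GRCh38.p14, 250 bases before to 50 after each annotated start) were found for 32 of the 35 members, and those of DERL1, DERL3 and PDIA3 were not matched. A gene was counted when any of its windows held a match on either strand. ERSE was found for 8 members, for 25 of the 27305 genes with a window and in 0.0769% of the 35116 windows. ERSE-II was found for 3 members, for 19 of those genes and in 0.0541% of windows. The matches, with 20 flanking bases on each side, read as follows for the members with a changed level and for HSPA5. Each is given in the direction of its gene, and capitals mark the match. A match written from CGTGG lies on the opposite strand.
HSPA5 (ERSE, chr9:125241371-125241429, minus strand): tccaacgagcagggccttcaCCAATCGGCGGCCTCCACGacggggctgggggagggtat
XBP1 (ERSE, chr22:28800583-28800641, minus strand): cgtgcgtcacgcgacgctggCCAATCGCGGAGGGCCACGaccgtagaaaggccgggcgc
PDIA6 (ERSE, chr2:10812833-10812891, minus strand): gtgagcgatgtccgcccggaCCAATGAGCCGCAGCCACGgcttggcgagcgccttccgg
HSP90B1 (ERSE, chr12:103930196-103930254, plus strand): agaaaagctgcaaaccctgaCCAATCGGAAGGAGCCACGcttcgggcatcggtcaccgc
HSP90B1 (ERSE, chr12:103930301-103930359, plus strand): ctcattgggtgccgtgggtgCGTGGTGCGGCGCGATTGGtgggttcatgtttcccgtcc
CALR (ERSE, chr19:12938364-12938422, plus strand): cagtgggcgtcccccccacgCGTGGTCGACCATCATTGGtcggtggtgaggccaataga
CRELD2 (ERSE, chr22:49918534-49918592, plus strand): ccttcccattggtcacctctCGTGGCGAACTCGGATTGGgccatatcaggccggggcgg
HERPUD1 (ERSE-II, chr16:56932005-56932055, plus strand): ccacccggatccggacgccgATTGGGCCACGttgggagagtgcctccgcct
HYOU1 (ERSE-II, chr11:119057360-119057410, minus strand): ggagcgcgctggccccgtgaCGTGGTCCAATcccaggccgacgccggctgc
HYOU1 (ERSE-II, chr11:119057254-119057304, minus strand): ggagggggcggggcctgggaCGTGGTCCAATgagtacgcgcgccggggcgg
SDF2L1 (ERSE-II, chr22:21642094-21642144, plus strand): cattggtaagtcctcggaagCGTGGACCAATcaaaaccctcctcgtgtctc

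The libraries held 21857327 to 25011357 counts. One control library, replicate 1, was unlike the rest of its group. The chi-square over genes, divided by its degrees of freedom, was 17.4 and 20.2 for this library against replicates 2 and 3, where it was 2.97 between those and 2.51 to 4.35 between ARD1 libraries. NAA10 was at 35.5, 32.1 and 36.2 CPM (counts scaled to a common library size, with factors from the trimmed mean of M values, TMM) in the controls and at 355, 399.8 and 294 CPM in the ARD1 libraries. Of 12 hepatocyte and hepatoma markers, TTR, APOA1 and GPC3 stayed under 1 CPM in every library, and 3 rose and 6 fell of the 9 tested, among the latter ALB from 315 to 36.2 CPM. Their summed level was 3359 to 4113 CPM in the controls and 2014 to 2085 CPM in the ARD1 libraries. Most of that sum was KRT8 (mean 2421 to 1560 CPM) and KRT18 (571 to 268 CPM), and the 3 that rose were HNF4A, APOB and SERPINA1. Markers of other cell types summed to 77.9 to 98.4 against 17.6 to 20.2 CPM for fibroblasts, 69.1 to 82.2 against 89.9 to 102.6 CPM for endothelium and 16.1 to 18.7 against 8.65 to 9.48 CPM for immune cells. Of the tested markers 1 rose and 2 fell for fibroblasts, 3 rose and 1 fell for endothelium, and 0 rose and 2 fell for immune cells. The endothelial sum hides opposite moves, with KDR going from 8.52 to 35.3 CPM and PECAM1 from 32.7 to 57.7 CPM while CDH5 went from 33.1 to 0.0676 CPM. The part of these markers in the results below was not tested.

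ER genes went in both directions. Of the 34 members tested, 13 rose and 12 fell in the ARD1 libraries and 9 did not pass (edgeR's quasi-likelihood test, Benjamini-Hochberg adjusted p under 0.05 over all 15816 genes tested). That is 25 of 34, where 64.6% of all genes tested changed, 32.4% higher and 32.2% lower. The median log2 fold change, ARD1 plasmid over control vector, was 0.04 over the members and 0.03 over all genes, and the median absolute value was 0.56 against 0.49. A log2 fold change of at least 1 was reached by 4 members that rose, CLGN, ERN1, ATF6 and SEL1L, where 9.71% of all genes did. CRELD2 was the 1 member that fell by as much, where 11.8% of all genes did. The 2 groups of libraries did not overlap for 28 members, where this held for 69.6% of all genes. The tested members of ERAD included 6 that rose and 0 that fell, and the disulphide group 0 that rose and 4 that fell. The HSP70 and HSP90 system (4 higher, 4 lower), the lectin chaperones (1 and 1) and the sensors (2 and 2) were split within themselves, and no difference between roles was tested. In bulk RNA, fewer cells that express a gene and less RNA per cell cannot be told apart.

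**Figure D1:**
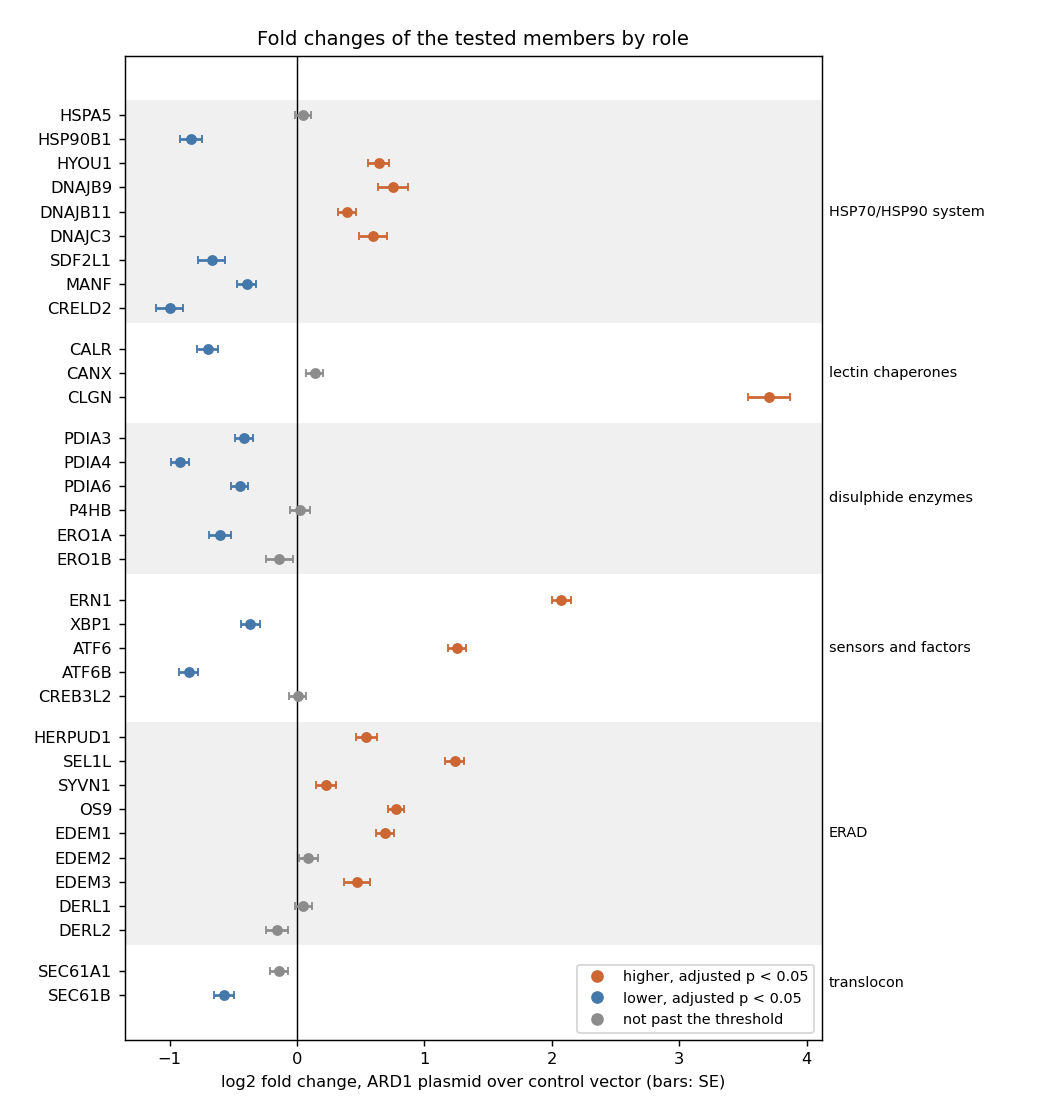
Log2 fold change of each tested member (x axis, ARD1 plasmid over control vector) by role group, with the standard error as a bar and the call as the colour. ERAD members lie at or right of 0 except DERL2, disulphide enzymes at or left of it except P4HB, and CLGN stands at 3.70.

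**Figure D2:**
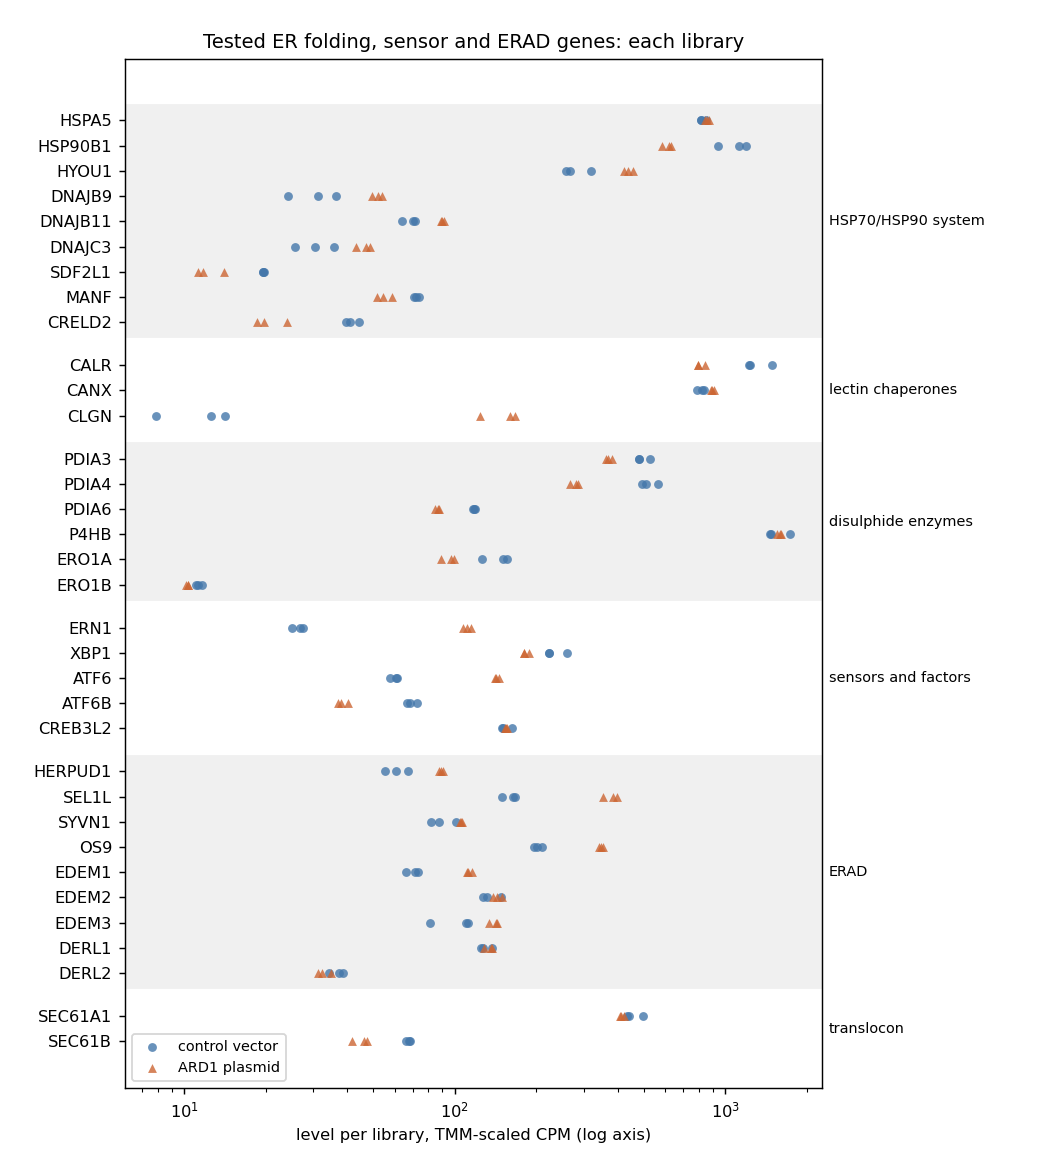
TMM-scaled CPM of each tested member in each of the 6 libraries (x axis, log scale), circles for control vector and triangles for ARD1 plasmid. CLGN, ERN1, ATF6 and SEL1L show the widest gaps with ARD1 libraries above, and control replicate 1 is often the control farthest from the others.

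BiP itself (HSPA5, ENSG00000044574, chromosome 9, 125234853 to 125241330, minus strand), the HSP70 of the ER and the usual read-out of ER stress, did not pass the test. It was at 852, 816 and 816 CPM in the controls and at 844, 855 and 871 CPM in the ARD1 libraries, and the groups overlapped (log2 fold change 0.05, SE 0.0638, edgeR adjusted p = 0.515). With library totals in place of TMM it passed as higher (0.31), a scaling that moved the median of all genes from 0.03 to 0.30. The promoter of HSPA5 over the 250 bases before its start (chr9:125241344-125241593, minus strand) is shown because BiP is the reference gene of the response. It holds 1 exact ERSE match, which begins 66 bases upstream of the start and is in capitals.
HSPA5 promoter: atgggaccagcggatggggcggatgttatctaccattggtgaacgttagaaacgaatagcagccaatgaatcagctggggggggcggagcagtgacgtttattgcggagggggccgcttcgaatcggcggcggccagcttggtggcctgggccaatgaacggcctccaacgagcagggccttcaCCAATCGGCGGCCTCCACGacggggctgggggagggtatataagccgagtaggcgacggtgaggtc

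The partners of BiP split into 4 that rose and 4 that fell. HYOU1, the large HSP70-like protein that recharges BiP with nucleotide, was at 320, 267 and 257 CPM in the controls and 456, 421 and 438 CPM with the ARD1 plasmid (log2 fold change 0.64, SE 0.083). DNAJB9 (ERdj4), a J protein that binds misfolded clients and restrains IRE1, was at 24.2, 31.3 and 36.5 CPM and then at 49.4, 52.1 and 53.7 CPM (0.75, SE 0.117). All 3 ARD1 libraries lay above all 3 controls for both genes, and control replicate 1 was the lowest control for DNAJB9 and the highest for HYOU1. DNAJC3 (p58IPK), a further J protein, rose from 30.6 ± 5.00 to 46.2 ± 2.79 CPM (SD, n = 3), a log2 fold change of 0.60 and, with GC content and transcript length trends removed, of 0.38. DNAJB11 (ERdj3), which hands clients to BiP, rose from 68.6 ± 4.09 to 90.1 ± 0.912 CPM (0.39), but with GC content and transcript length trends removed it no longer passed (0.11, edgeR adjusted p = 0.112, range over its alternatives 1.20e-06 to 0.112). Exons of other genes overlap 7.87% of DNAJB11 exon bases on the same strand and 15.3% on the opposite strand.

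HSP90B1, SDF2L1, MANF and CRELD2 fell. HSP90B1 (GRP94), the HSP90 of the ER, stood at 942, 1127 and 1195 CPM in the controls and at 583, 619 and 627 CPM with the ARD1 plasmid (log2 fold change -0.83, SE 0.0847). All ARD1 libraries lay below all controls, and control replicate 1 was the lowest control. CRELD2, a secreted stress-induced protein with EGF-like domains, was at 44.2, 39.7 and 41.1 CPM and then at 19.7, 24.01 and 18.7 CPM (-1.001, SE 0.102). SDF2L1, which forms a complex with ERdj3, was at 19.8, 19.7 and 19.6 CPM in the controls and at 11.8, 14.0 and 11.3 CPM in the ARD1 libraries (-0.67, SE 0.107). The controls of SDF2L1 were almost equal and all ARD1 libraries were below them, and with GC and length trends removed the log2 fold change was -0.25. MANF, a small ER-resident factor that binds BiP, went from 72.1 ± 1.84 to 54.8 ± 3.51 CPM (-0.40), a call that was lost with library totals (-0.13, adjusted p = 0.130, range over its alternatives 2.46e-07 to 0.130). The level of HSPA5 relative to HSP90B1 within a library, per exon kilobase and free of any scaling, was 0.919 in the controls and 1.69 in the ARD1 libraries. The log2 ratio was 0.12, -0.20 and -0.29 in the controls and 0.80, 0.73 and 0.74 in the ARD1 libraries.

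Among the lectin chaperones, which hold glycoproteins until they fold, the 3 members took 3 courses. CLGN (calmegin, ENSG00000153132, chromosome 4, 140388455 to 140427968, minus strand), a calnexin homologue known mainly from testis, had the largest change of all members. It was at 7.91, 12.5 and 14.2 CPM in the controls and at 160, 124 and 167 CPM in the ARD1 libraries, 13.0-fold higher (log2 fold change 3.70, SE 0.165, edgeR adjusted p = 8.91e-11). Every ARD1 library exceeded every control by a wide margin, and without control replicate 1, the lowest, the log2 fold change was 3.48. CALR (calreticulin), the soluble lectin, was at 1483, 1222 and 1239 CPM and then at 791, 838 and 795 CPM (-0.70, SE 0.0804). CANX (calnexin), its membrane-bound relative, was at 818, 835 and 786 CPM and then at 883, 909 and 891 CPM, without overlap but not past the threshold (0.14, adjusted p = 0.0729). The direction of CANX turned with GC and length trends removed (-0.05), and it passed as higher with library totals (0.40), with upper-quartile scaling and without control replicate 1. Within a library CALR was 3.70 times as abundant as CANX per exon kilobase in the controls and 2.08 times in the ARD1 libraries.

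Disulphide chemistry genes fell or did not pass. PDIA4 (ERp72), an isomerase with several thioredoxin-like domains, was at 566, 494 and 510 CPM in the controls and at 280, 286 and 266 CPM with the ARD1 plasmid (log2 fold change -0.92, SE 0.0723). PDIA6 (P5), which works with BiP and also binds IRE1, was at 118, 119 and 117 CPM and then at 84.7, 86.9 and 87.3 CPM (-0.45, SE 0.0664). PDIA3 (ERp57), the partner of calreticulin and calnexin, went from 495 ± 28.2 to 371 ± 8.29 CPM (-0.42). The groups were separate for all 3 of these isomerases. P4HB, the protein disulphide isomerase itself and a subunit of collagen prolyl 4-hydroxylase, was at 1733, 1461 and 1480 CPM and then at 1590, 1611 and 1552 CPM, with overlap (0.02, SE 0.0762, adjusted p = 0.794). The sign of P4HB turned when control replicate 2 (-0.05) or 3 (-0.04) was left out, and it passed as higher without control replicate 1 (0.10), with library totals (0.29) and with GC and length trends removed (0.30). Exons on the opposite strand cover 25.2% of PDIA6 and 18.9% of PDIA3 exon bases, and PDIA3 has 2 annotated pseudogenes, so these counts are uncertain to that extent.

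The oxidases that reload the isomerases differed in level. ERO1A was at 126, 157 and 151 CPM in the controls and at 89.0, 99.5 and 96.6 CPM with the ARD1 plasmid (log2 fold change -0.60, SE 0.0867). ERO1B, the paralogue known from pancreas, was at 11.04, 11.3 and 11.7 CPM and then at 10.3, 10.2 and 10.3 CPM. Its groups did not overlap but it did not pass (-0.14, adjusted p = 0.270), and it turned with library totals (0.13) and passed as lower with GC and length trends removed (-0.45). Per exon kilobase ERO1A was 9.02 times as abundant as ERO1B within a control library and 6.55 times within an ARD1 library.

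Of the 5 sensor and factor genes, ERN1 and ATF6 rose, XBP1 and ATF6B fell and CREB3L2 did not pass. ERN1 (IRE1 alpha, ENSG00000178607, chromosome 17, 64039142 to 64130819, minus strand), the kinase and RNase that splices XBP1 mRNA, was at 26.8, 27.4 and 25.1 CPM in the controls. It was at 112, 108 and 115 CPM in the ARD1 libraries, 4.21-fold higher (log2 fold change 2.08, SE 0.0765). ATF6 (ENSG00000118217, chromosome 1, 161766294 to 161964070, plus strand), a membrane-bound factor that is cut free in the Golgi, was at 57.8, 60.7 and 61.4 CPM and then at 142, 141 and 146 CPM (1.25, SE 0.069). Both sensors showed a spread within a group far below the gap between groups. XBP1, the factor made active by IRE1, went the other way, from 261, 224 and 223 CPM to 189, 181 and 180 CPM (-0.37, SE 0.0754). This call was lost with library totals (-0.10, adjusted p = 0.171, range over its alternatives 6.98e-08 to 0.171). Gene counts do not separate spliced from unspliced XBP1, and 1 XBP1 pseudogene is annotated.

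ATF6B, the paralogue of ATF6 with weaker transcriptional activity, fell where ATF6 rose. It was at 72.8, 68.6 and 66.4 CPM in the controls and at 40.2, 37.0 and 38.1 CPM with the ARD1 plasmid (log2 fold change -0.85, SE 0.0768). Per exon kilobase ATF6 was 0.398 times as abundant as ATF6B within a control library and 1.71 times within an ARD1 library, so the order of the pair turned. The log2 ratio was -1.45, -1.30 and -1.23 in the controls and 0.70, 0.81 and 0.81 in the ARD1 libraries, a difference of 2.10. CREB3L2, a related membrane-bound factor, was at 154 ± 7.40 and 155 ± 1.76 CPM (SD, n = 3) with a log2 fold change of 0.00 (SE 0.0673, adjusted p = 0.963), passing as higher with library totals (0.27). Exons of other genes on the same strand share 9.92% of ATF6B exon bases.

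ERAD held 6 of the 13 members that rose, with 6 of its 9 tested members higher and 0 lower. SEL1L (ENSG00000071537, chromosome 14, 81471549 to 81533861, minus strand), the adaptor that stabilises the ligase HRD1, was at 150, 168 and 164 CPM in the controls and at 383, 352 and 398 CPM in the ARD1 libraries, 2.35-fold higher (log2 fold change 1.24, SE 0.0742). SYVN1, which encodes HRD1, was at 101, 87.6 and 82.1 CPM and then at 106, 105 and 106 CPM (0.23, SE 0.0804, adjusted p = 0.0228). The groups of SYVN1 were separate by a small margin, and the call was lost when any 1 library other than control replicate 1 was left out (adjusted p 0.0597 to 0.209, range over all its alternatives 2.41e-07 to 0.209). OS9, the lectin that delivers trimmed glycoproteins to SEL1L, was at 211, 196 and 201 CPM and then at 353, 341 and 348 CPM (0.78, SE 0.0655). HERPUD1, a membrane scaffold of the HRD1 complex, was at 67.2, 55.5 and 60.5 CPM and then at 89.1, 87.7 and 90.2 CPM (0.54, SE 0.080). FAU and MIR6751 exons on the same strand share 8.39% of SYVN1 exon bases, and opposite-strand exons cover 13.5% of OS9. The counts of SYVN1 and OS9 are uncertain to that extent.

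The EDEM proteins, mannosidases that mark glycoproteins for ERAD, differed in their calls. EDEM1 was at 66.3, 71.3 and 72.9 CPM in the controls and at 116, 111 and 112 CPM with the ARD1 plasmid (log2 fold change 0.69, SE 0.0709). EDEM3 was at 81.2, 110 and 112 CPM and then at 144, 133 and 142 CPM (0.47, SE 0.102), with control replicate 1 the lowest. Without that library the log2 fold change of EDEM3 was 0.32, and with GC and length trends removed 0.20. EDEM2 was at 148, 127 and 132 CPM and then at 144, 149 and 139 CPM, with overlap (0.09, SE 0.0749, adjusted p = 0.320). EDEM2 passed as higher without control replicate 1 (0.14), with library totals (0.35) and with GC and length trends removed (0.22). The log2 ratio of EDEM1 to EDEM2 within a library was 0.60 higher in the ARD1 libraries, while that of EDEM1 to EDEM3 overlapped between the groups (difference 0.21, two-sided exact permutation p = 0.3).

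The derlins, rhomboid-like membrane proteins of the retrotranslocation channel, did not pass. DERL1 was at 129 ± 6.40 and 134 ± 4.72 CPM over 3 libraries a group (mean ± SD; log2 change 0.05, SE 0.0697) and DERL2 at 36.8 ± 2.27 and 32.9 ± 1.87 CPM (-0.16, SE 0.0861). DERL2 passed as lower without control replicate 1 (-0.22) and with GC and length trends removed (-0.40), and its sign turned with library totals (0.10). DERL1 passed as higher with library totals (0.32), and its sign turned with GC and length trends removed (-0.10) and without control replicate 3 (-0.01). DERL3 had 0, 0 and 1 counts in the controls and 2, 0 and 2 in the ARD1 libraries and was too low to test. A floor of 3 counts in a library was worth 0.120 to 0.137 CPM before TMM scaling, for counting error only. Exons of SMARCB1 lie opposite 77.0% of DERL3 exon bases.

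The translocon, the channel by which proteins enter the ER, had 1 member lower and 1 that did not pass. SEC61B, a small subunit, was at 67.8, 65.9 and 68.1 CPM in the controls and at 41.8, 47.4 and 46.2 CPM with the ARD1 plasmid (log2 fold change -0.57, SE 0.0766). SEC61A1, the pore, was at 496, 441 and 432 CPM and then at 424, 407 and 412 CPM (-0.14, adjusted p = 0.0996). The groups of SEC61A1 did not overlap. SEC61A1 passed as lower without control replicate 3 (-0.21, adjusted p = 0.0406), and its sign turned with library totals (0.13).

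Summed over each role, the groups of libraries moved apart by unlike amounts. ERAD transcripts summed to 995, 980.2 and 987 CPM in the controls and to 1502, 1443 and 1504 CPM in the ARD1 libraries, a log2 difference of 0.59. Much of that rise lay in SEL1L (mean 160 to 378 CPM) and OS9 (203 to 347 CPM), and DERL1, DERL2 and EDEM2 did not pass. Disulphide enzymes summed to 3081, 2720 and 2749 CPM and then to 2434, 2463 and 2376 CPM (-0.23). The HSP70 and HSP90 system came to 2460 ± 91.5 and 2181 ± 26.2 CPM (-0.17), the lectin chaperones to 2139 ± 148 and 1853 ± 18.3 CPM (-0.21) and the sensors to 546 ± 30.6 and 630.4 ± 8.06 CPM (0.21). Over all 35 members the sum was 9506 ± 337 and 9032 ± 5.52 CPM (SD, n = 3), a log2 difference of -0.07, and of -0.04 without control replicate 1. That sum turned sign with library totals (0.19), as did those of the HSP70 and HSP90 system (0.09), the lectin chaperones (0.06), the disulphide enzymes (0.03) and the translocon (0.08). No scaling enters the ratio of 2 sums in a library, a measure chosen after the values were seen. The ERAD sum was 0.323, 0.360 and 0.359 of the disulphide sum in the controls and 0.617, 0.586 and 0.633 in the ARD1 libraries. For each role sum under TMM the 2 groups were separate and the two-sided exact permutation p was 0.1, the smallest that 3 against 3 allows.

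**Figure D3:**
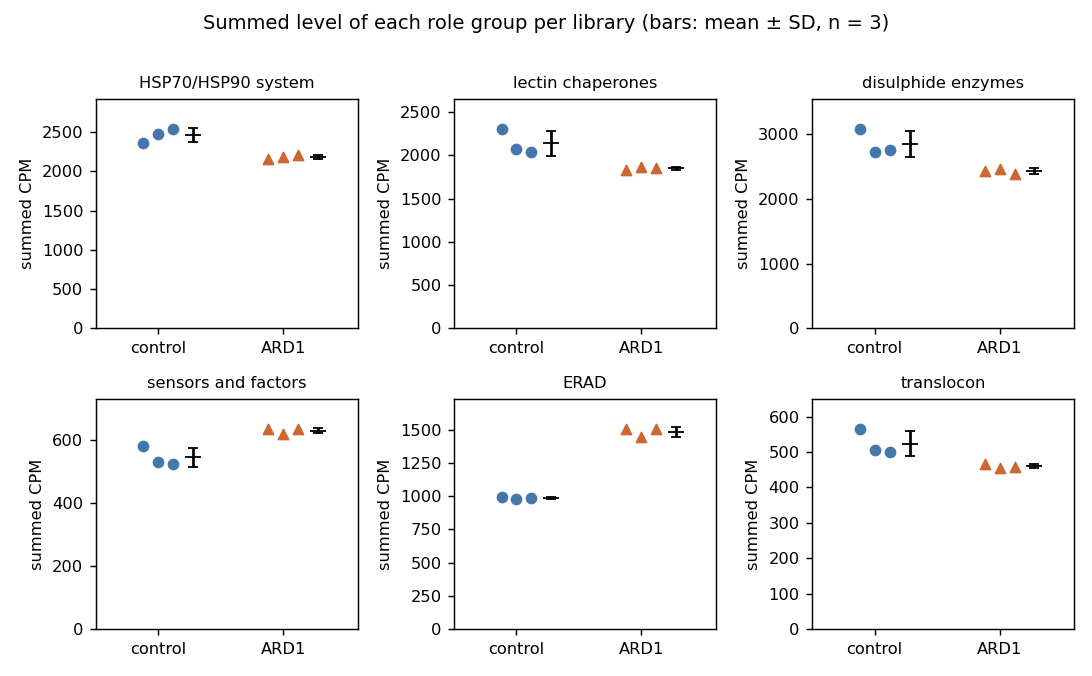
Summed TMM-scaled CPM of each role group (y axis, from 0) in the 3 control and 3 ARD1 libraries, with mean ± SD at the right of the points. The ERAD panel shows 980 to 995 CPM in the controls against 1443 to 1504 CPM in the ARD1 libraries, and the sums of chaperones, disulphide enzymes and translocon lie lower in the ARD1 libraries on this scale.

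The order of levels per exon kilobase also shifted. In the controls the most abundant members were CALR (484 CPM per exon kilobase), P4HB (294), HSP90B1 (232), HSPA5 (212) and PDIA4 (160). In the ARD1 libraries P4HB (299) and CALR (298) were at the top, followed by HSPA5 (219), CANX (143) and HSP90B1 (130). CLGN moved from place 32 to place 13 of 35, ATF6 from 29 to 21 and SEL1L from 21 to 14. ATF6B moved from place 17 to 29, ERO1A from 16 to 27 and SDF2L1 from 19 to 28. Neighbours in the order such as P4HB and CALR in the ARD1 libraries differ by less than their spread over libraries, and lengths were taken over all annotated exons.

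Within-library ratios were compared for 11 pairs of members. For 7 of them, ERO1A to ERO1B, ATF6 to ATF6B, EDEM1 to EDEM2, EDEM2 to EDEM3, CALR to CANX, HSPA5 to HSP90B1 and ERN1 to XBP1, the groups did not overlap. Each of these gave a two-sided exact permutation p of 0.1, the smallest the design allows, and 0.157 adjusted over the 11 pairs. The widest was ERN1 to XBP1, where the sensor stood at 0.0313 of its target per exon kilobase in the controls and 0.170 in the ARD1 libraries. DERL1 to DERL2 overlapped between the groups (difference 0.21, exact permutation p = 0.2), and the pairs with DERL3 rest on at most 2 counts a library.

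Read against the promoter elements printed above, none of the 8 members with an exact ERSE rose. HSP90B1, CALR, CRELD2, PDIA6 and XBP1 fell, and HSPA5, CANX and ERO1B did not pass, with a median log2 fold change of -0.41. The 24 other members with a window had 13 higher, 6 lower and a median of 0.31. Over all genes tested 32.4% were higher and 32.2% lower (median 0.03). The motifs were searched after the members' values were seen. Only exact letters were counted, and near matches were not searched for. The window of HERPUD1, which rose, also holds CCAAT followed by 9 bases and CCACA. That stretch departs from ERSE in its last base, and HERPUD1 is counted here among the members without ERSE. With library totals 2 of the 8 passed as higher, HSPA5 and CANX, and 4 as lower, and with GC and length trends removed 6 passed as lower and 0 as higher. With upper-quartile scaling, and also without control replicate 1, 1 passed as higher, CANX, and 5 as lower. Outside the members, 8 tested genes had an exact ERSE, of which 2 rose and 4 fell (median -0.24). Of the 3 members with ERSE-II, HYOU1 and HERPUD1 rose and SDF2L1 fell. HERPUD1 and CREB3L2 had a match to TGATGNAA, a form of the element bound by ATF4, which 3.62% of windows hold, and HYOU1 had the element TGACGTGG, which 0.729% of windows hold and which there overlaps an ERSE-II match by 5 bases. The core CCACG, part of ERSE and ERSE-II, was present for 22 of the 32 members with a window. It was present for 11494 of the 27305 genes with a window and in 38.1% of all windows. Of the members with it 9 rose and 8 fell, and of those without it 4 rose and 3 fell. A match describes letters in a window and does not show binding.

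**Figure D4:**
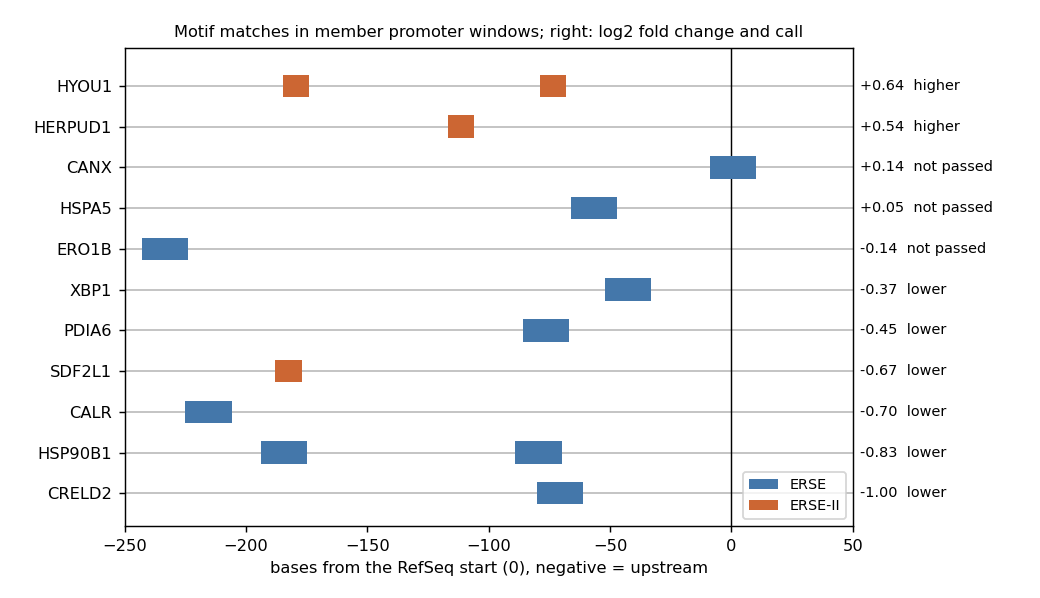
Positions of exact ERSE and ERSE-II matches (x axis, bases from the RefSeq start, negative upstream) for the 11 members that hold one, ordered by log2 fold change, printed at the right with the call. The rows with ERSE run from 0.14 for CANX down to -1.001 for CRELD2, and the 2 members that rose, HYOU1 and HERPUD1, hold ERSE-II.

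Other genes of the secretory pathway, in 9 lists that hold 267 genes in all, were also split. Of the 260 tested, 86 rose and 87 fell (66.5% changed), with a median log2 fold change of 0.00. Over all genes 64.6% changed, 32.4% higher and 32.2% lower. With library totals 151 rose and 52 fell (median 0.26), and each of the 9 lists shifted upward, where the median of all genes was 0.30. In the list of the PERK branch and its effectors 15 of 28 rose and 9 fell (median 0.25), among them the transcription factors DDIT3 (2.49) and ATF3 (2.63), and the membrane-bound factor CREB3L1 (-1.59) and the IRE1 adaptor TRAF2 (-0.98) fell. Further genes of this list are named after their values were seen. EIF2AK3, which encodes PERK itself, did not pass (0.04, edgeR adjusted p = 0.703), nor did ATF4 (0.12, adjusted p = 0.109). TRIB3, a target of ATF4, fell by 0.20 on the log2 scale (edgeR adjusted p = 0.0355), and CREB3, a further membrane-bound factor, rose (0.51). TRIB3 does not stand for the effectors of the list, where CHAC1 (2.13), PPP1R15A (2.06), SESN2 (1.72) and VLDLR (0.89) rose and BBC3 fell (-0.27). Other ERAD genes were evenly split, 11 of 43 higher and 10 lower (median -0.04). The changed share was 48.8% in this list and 85.7% in the PERK list, beside the 64.6% of all genes. SVIP, a small inhibitor of ERAD (1.92), and ERLIN2 (0.97) rose, and the ligase TMEM129 (-1.23) and TMUB1 (-0.93) fell.

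Genes of N-glycan assembly and trimming had 21 of 38 lower and 6 higher (median -0.23), where 32.2% of all genes were lower and 32.4% higher. With library totals the list had 13 higher and 13 lower (median 0.03). Under that scaling 48.0% of all genes were higher and 22.1% lower (median 0.30), so the list stayed below the median of all genes. DPM3 (-1.39) and SRD5A3 (-1.10) fell and ALG10 (0.57) and DPM1 (0.55) rose. ER exit and COPII genes had 20 of 35 lower and 8 higher (median -0.26). Of the receptors that return KDEL proteins to the ER, KDELR1 went from 633 ± 86.8 to 283 ± 16.5 CPM (-1.16) and KDELR3 fell by 1.10, while the exit genes MIA2 (0.66) and MCFD2 (0.54) rose. The further receptor KDELR2, named after its value was seen, fell by 0.60. With library totals this list had 14 higher and 10 lower (median 0.01). Further disulphide isomerase family genes had 9 of 23 higher and 6 lower (median 0.06). AGR2, a secretory-cell isomerase, went from 388 ± 43.7 to 83.2 ± 4.45 CPM (-2.22) and PDIA5 fell by 1.47 on the log2 scale, while the membrane isomerase TMX4 (1.79) and TXNDC12 (1.54) rose.

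Further chaperones and prolyl isomerases had 10 of 26 higher and 6 lower (median 0.16). The collagen chaperone SERPINH1 (-1.44) and DNAJC18 (-0.85) fell and HSPA13 (1.39) and CNPY4 (0.91) rose. Signal recognition, translocon and signal peptidase genes had 8 of 27 higher, SEC11C (1.41) and the paralogue SEC61A2 (1.11) at the top, and 5 lower, SPCS2 (-0.76) and SSR2 (-0.70) at the bottom. ER-phagy and ER-shaping genes had 12 of 23 higher and 5 lower (median 0.17), the ER-phagy receptor CCPG1 (1.25) and the ligase UFL1 (0.75) against CDK5RAP3 (-1.36) and LNPK (-1.13). ER calcium genes had 7 of 18 higher, the release channel ITPR2 (1.51) and NUCB2 (1.07) first, and 5 lower, RCN3 (-0.58) and NUCB1 (-0.46) last. The changed share of these lists, in the order given, was 61.5%, 48.1%, 73.9% and 66.7%. Over all genes 64.6% changed, 32.4% higher and 32.2% lower.

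Results were set beside 3 further settings that bear on these libraries. Control replicate 1 was the control farthest from the other 2 for 27 of the 34 tested members and for 56.4% of all genes. Without it 16 members rose and 13 fell, where 33.2% of all genes were higher and 34.1% lower. With library totals 19 rose and 10 fell, a split of 65.5% higher among those changed in place of 52.0%. Over all genes that split was 68.5% in place of 50.2%, with 48.0% of genes higher and 22.1% lower. With GC and length trends removed 14 rose and 14 fell, where 34.3% of all genes were higher and 34.7% lower. For ERAD the counts were 7 higher and 1 lower without control replicate 1, 8 and 0 with library totals, and 7 and 1 with trends removed, DERL2 being the 1 lower. When any 1 library other than control replicate 1 was left out, they were 5 higher and 0 lower, the call of SYVN1 being lost.

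**Figure D5:**
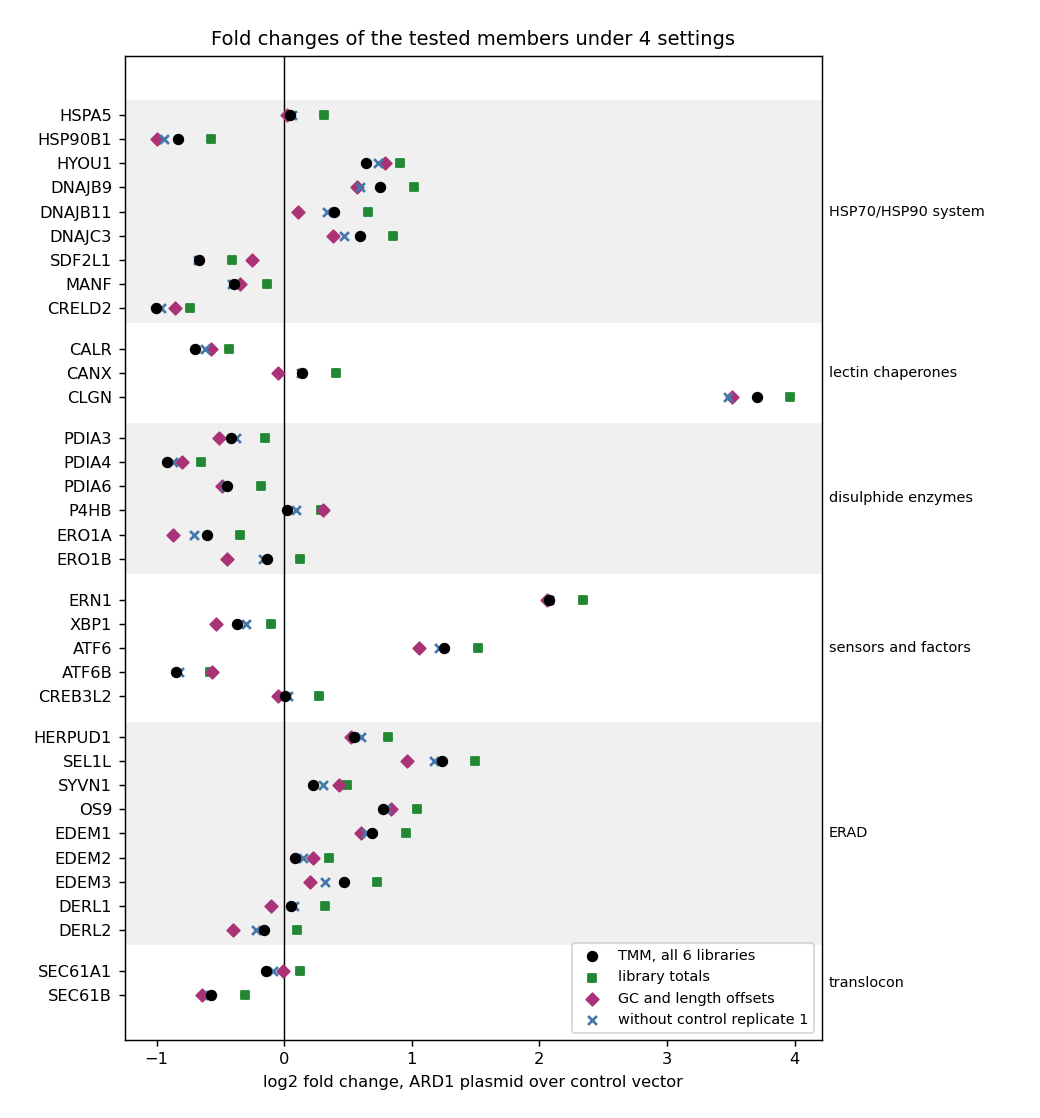
Log2 fold change of each tested member (x axis) under TMM with all libraries, library totals, GC and length offsets, and without control replicate 1. Library totals shift every member to the right by about the same amount, and the members that cross 0 between settings are those near it, such as CANX, ERO1B, DERL1, DERL2 and SEC61A1.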

How the data were processed

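The authors deposited a table of whole-number read counts by Ensembl gene, one column a library and not normalized. The submitters' processing notes name cutadapt 4.6, STAR 2.7.11b and the build GRCh38. Per the labels' protocols, ribosomal RNA was depleted and a directional kit used. Which program counted the reads, with which strand option and gene models, is not given in the sources used here, so overlapping genes are uncertain. Groups and replicate numbers come from the titles. Same-numbered libraries did not deviate together (correlations 0.02, -0.07 and 0.07). With so few libraries this cannot show whether they shared a culture or a day, and the labels do not say.

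All genes passing filterByExpr (15816 of 25071) were fitted with edgeR 4.0.16 in R 4.3.3 (TMM, quasi-likelihood test, Benjamini-Hochberg, threshold 0.05). The fit was also run on simulated counts in which few genes changed, unlike in these data, so that run does not bear on the choice of scaling. Standard errors were derived from the F statistic. CPM are TMM-scaled, given as mean ± SD or per library. Intervals are not given for single counts, since reads without molecular identifiers are not independent molecules. Symbols came from a names table (25052 matched), and coordinates, exon lengths and overlaps from GENCODE 29 (GRCh38). Within-library ratios used counts plus 0.5 per exon kilobase. Alternatives were RLE, upper-quartile and no scaling factors, DESeq2 1.42.0, limma-voom (limma 3.58.1), no filter, 1 CPM in 3 libraries, the replicate block, loess offsets for GC content and length (span 0.3), library sizes without NAA10, each library left out, and a log2 fold change of at least 1. All members are named, and of each wider list up to 2 rises and 2 falls with the largest change past the threshold, at least 1 CPM and no overlap. Members and lists were chosen with earlier results of these data known.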

Additional observations from a re-analysis of the deposited data

How the results depend on the processing

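Of the 34 tested members, 21 kept direction and call under every other scaling, tool, filter, offset, block and left-out library run, and 13 did not. The fold minimum below is not counted there. With the replicate block 13 members rose and 12 fell, as without it, 87 wider genes rose and 86 fell, and no member's call changed. The replicate numbers carry no shared origin in the labels. With a log2 fold change of at least 1, 4 members rose and 1 fell, as did 17 and 11 wider genes, and 1536 and 1870 of all genes. With library totals 151 wider genes rose and 52 fell, and 68.5% of all changed genes were higher in place of 50.2%. The log2 difference of the summed 35 members was then 0.19 in place of -0.07, and sums turned for the 34 members without HSPA5 (0.179), the HSP70 and HSP90 system (0.0917), lectin chaperones (0.0596), disulphide enzymes (0.0335) and translocon (0.0786). ERO1B (0.126), DERL2 (0.103) and SEC61A1 (0.127) also turned with library totals. With GC and length offsets, without and with the replicate block, CANX (-0.0479 and -0.0444), DERL1 (-0.102 and -0.0980) and CREB3L2 (-0.0504 and -0.0497) turned. CREB3L2 turned with RLE (-0.0146), DESeq2 (-0.0145) and no filter (-0.00994) as well. With 1 library left out, the log2 fold change ranged from -0.0475 to 0.0958 for P4HB, from -0.0517 to 0.0324 for CREB3L2 and from -0.00697 to 0.0795 for DERL1. None of the members that turned had passed with TMM and all libraries, and the cause was not tested. Leaving out 1 library gave 12 to 16 members higher and 12 to 13 lower. Depth did not allow a test of DERL3.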

Other observations

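Over the whole table, 330 tested genes had a RefSeq promoter window with a match to TGATGNAA on either strand, and 144 of them rose and 89 fell (median log2 fold change 0.20), beside 5127 higher and 5096 lower of the 15816 genes tested. For TGACGTGG the numbers were 43 higher and 46 lower of 141, with a median of 0.05. These searches were made after the values of the members were seen and are given as a description. The 15816 genes beside them were not limited to genes with a window. The sets were not examined with library totals or with GC and length trends removed.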
